A study of Drosophila melanogaster with 3 samples.

Results

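The 8 Hox genes of Drosophila melanogaster, labial (lab), proboscipedia (pb), Deformed (Dfd), Sex combs reduced (Scr), Antennapedia (Antp), Ultrabithorax (Ubx), abdominal A (abd-A) and Abdominal B (Abd-B), were examined for binding of the ecdysone receptor EcR in whole pupae. They were chosen by name, as the homeotic genes of both Hox complexes, and are 8 of 13945 protein-coding genes. All 8 were found in the annotation. The samples came from a single transgenic line, EcR-GFP, which stably carries EcR with eGFP at its C-terminus, so that an antibody against GFP recovered chromatin bound by the tagged receptor. Pupae were aged 24 hours, per the labels, which do not say from which event age was counted, and males and females were pooled. There were 3 biological replicates from separate biosamples, all in 1 group, with no untagged, untreated or other-stage animals among them. Chromatin of every tissue was mixed, so a site bound in few cells and a site bound weakly in many cannot be told apart, and peak positions do not allow the labelled stage and source to be checked against markers.

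Hox genes encode homeodomain transcription factors that give segments their identity along the head-to-tail axis. In flies they sit in a pair of clusters on chromosome 3R, the Antennapedia complex for head and anterior thorax and the bithorax complex for posterior thorax and abdomen, in the order of the body regions they specify. Polycomb group proteins keep them silent where they are not needed and trithorax group proteins keep them active where they are. EcR, with its partner ultraspiracle (usp), is the nuclear receptor for the moulting hormone ecdysone, which times metamorphosis, when Hox genes also pattern adult legs, wings, halteres, mouthparts and genitalia.

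A gene's region was taken as its body plus the 2 kb upstream, and a peak was assigned to it when its summit, the deposited position of highest signal, lay there. The optimal list held 9095 peaks that met the deposited reproducibility threshold. The pooled list and each replicate list held 30000, a fixed length that takes in weaker peaks. Peaks were ranked within a list by the authors' signal value, rank 1 being the strongest. The depth of each library is unknown. Because the samples form 1 group, values are descriptions with no test.

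The Hox gene regions held 4 optimal summits, 1 in Scr, 2 in Antp and 1 in abd-A. Their sequences are shown because they are the sites at which EcR-GFP was recovered most strongly inside Hox genes, with, as the last line, the strongest peak anywhere in the complexes, which lay outside the Hox genes. Each run is the 101 bases centred on the summit, on the plus strand of the RefSeq release 6 assembly. Capitals mark the 13-base stretch that comes closest to the EcR/usp inverted repeat, a pair of 6-base receptor sites facing each other across a 1-base spacer.
Scr, chr3R:6832628-6832728: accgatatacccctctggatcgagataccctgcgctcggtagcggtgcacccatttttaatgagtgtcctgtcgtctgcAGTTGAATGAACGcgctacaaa
Antp, chr3R:6923276-6923376: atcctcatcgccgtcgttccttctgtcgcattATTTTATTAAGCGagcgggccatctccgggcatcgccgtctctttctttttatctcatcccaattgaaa
Antp, chr3R:6922545-6922645: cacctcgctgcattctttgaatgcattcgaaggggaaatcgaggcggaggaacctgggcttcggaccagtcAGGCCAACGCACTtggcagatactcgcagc
abd-A, chr3R:16819724-16819824: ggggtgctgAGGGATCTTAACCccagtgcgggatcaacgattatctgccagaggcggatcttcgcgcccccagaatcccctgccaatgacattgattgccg
Antennapedia complex, between Dfd and Scr, chr3R:6812484-6812584: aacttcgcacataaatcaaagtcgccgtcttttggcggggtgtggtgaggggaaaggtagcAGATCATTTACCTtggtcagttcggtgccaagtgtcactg

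Within these windows the best stretch had 2 mismatches to the repeat at Scr, 5 and 3 at the Antp summits, 4 at abd-A, and 2 at the peak between Dfd and Scr. For comparison, a stretch with 1 mismatch, chosen for its match, lay 13 bp from the summit of the peak of rank 4, in Eip75B, the ecdysone-induced gene for the nuclear receptor E75, and read
Eip75B, chr3L:17993935-17993947: AGTTCACTGACAT
None of the 4 optimal Hox summits, and 0 of the 37 pooled ones, had a match with at most 1 mismatch within 100 bp, against 440 of all optimal summits (4.84%) and 805 of all pooled summits (2.68%). With at most 2 mismatches there was a match at 1 of 4 optimal and 4 of 37 pooled Hox summits (10.8%), against 18.6% of all optimal and 12.8% of all pooled summits. The 4 were 1 summit in Scr and 3 in Antp. GAGAG, a word bound by GAGA factor, and GCCAT, the core of sites for Pleiohomeotic, were also counted on both strands, since both occur in the Polycomb response elements of these complexes. GAGAG lay within 100 bp of 12 of 37 pooled Hox summits (32.4%), against 30.3% of all pooled summits. GCCAT lay near 16 of 37 (43.2%), against 34.9%. Neither word contains the other or is contained in the repeat, and a match is a description of the letters, not of binding by either factor.

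Binding over the Hox genes was sparse for genes of their length. A summit of the optimal list lay in 3 of 8 Hox genes (37.5%), against 30.7% of all protein-coding genes, most of which are shorter: the median region was 32.6 kb for the Hox genes and 4.17 kb for all. Among the 200 genes whose regions were closest in length to that of each Hox gene, other Hox genes left out, the share with a summit averaged 59.8%. The 353.524 kb of Hox gene regions held 0.0113 optimal summits per kb, against 0.0837 over genes of similar length, a ratio of 0.135. The 0.0837 is all summits of those genes over all their length, so heavily bound genes weigh in it. The median density of the 200 genes was lower, from 0 (Dfd) to 0.0765 per kb (lab). Taken singly, the members with an optimal summit lay nearer the middle. Scr, Antp and abd-A were denser than 45.5%, 42% and 39% of the 200 genes of similar length. The other members held 0, as did 83 (lab), 80 (pb), 102 (Dfd), 75 (Ubx) and 80 (Abd-B) of their 200. In the pooled list 4 of 8 Hox genes held a summit, against 50.4% of all protein-coding genes. They held 37 summits, or 0.105 per kb against 0.274 computed in the same way, a ratio of 0.381. The median pooled density of the 200 genes ran from 0.156 (Abd-B) to 0.315 per kb (lab).

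In the replicate lists 4 of 8 Hox genes held a summit each time, a share close to that of all protein-coding genes, which was 52.0%, 51.9% and 49.5% in replicates 1, 2 and 3. Genes of similar length would give 5.54, 5.63 and 5.55 of 8 in replicates 1, 2 and 3 at their own shares. The numbers of Hox summits were 34, 29 and 42 in replicates 1, 2 and 3, a mean of 35 ± 6.56 (SD, n = 3). Replicate 3 was highest and replicate 2 lowest, while the ratio to genes of similar length was 0.360 ± 0.0639 (SD, n = 3 replicates) and stayed below 1 in every replicate. Among the 9095 strongest peaks of each replicate there were 3, 2 and 5 Hox summits in replicates 1, 2 and 3, and the ratio was 0.111 ± 0.0494 (SD, n = 3 replicates).

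**Figure D1:**
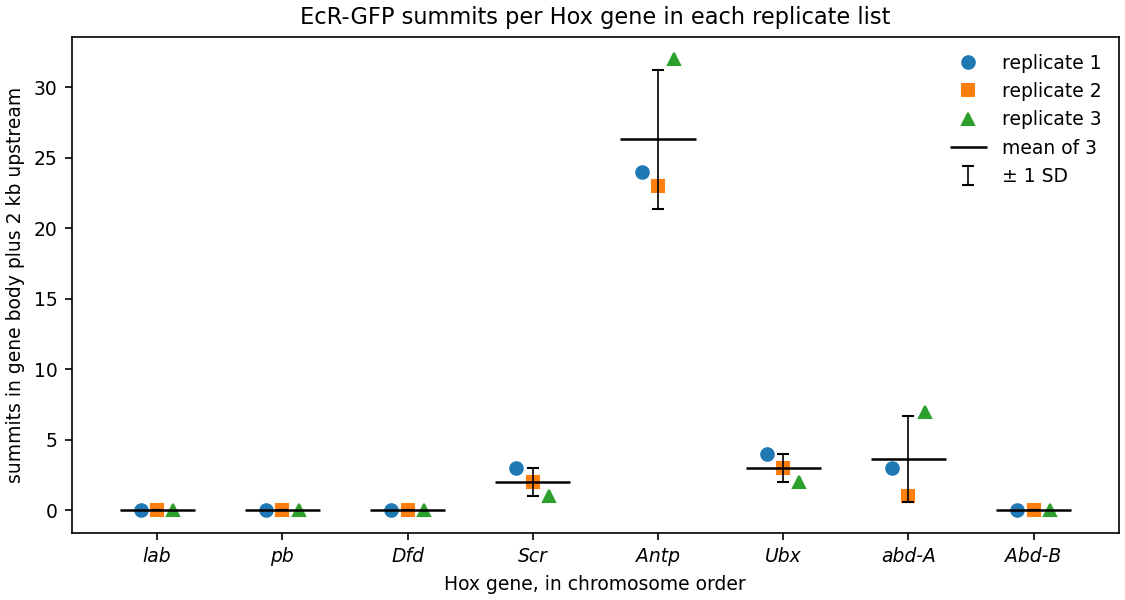
Number of peak summits in the region (gene body plus 2 kb upstream) of each Hox gene in the lists of replicates 1, 2 and 3, with the mean as a bar and ± 1 SD (n = 3), in chromosome order. Antp, at 24, 23 and 32, stands above the other members in every replicate, and lab, pb, Dfd and Abd-B are at 0 in all 3.

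The members fell into 3 kinds. Antp held many summits, most of them weak, and Scr, abd-A and Ubx held a few. In lab, pb, Dfd and Abd-B there were none in any of the 5 lists. The pooled summits of Antp lay between 3R 6912894 and 6970230, so both ends of its region were empty in that list. The plot of summits per kb by region length sets each member beside the other genes.

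**Figure D2:**
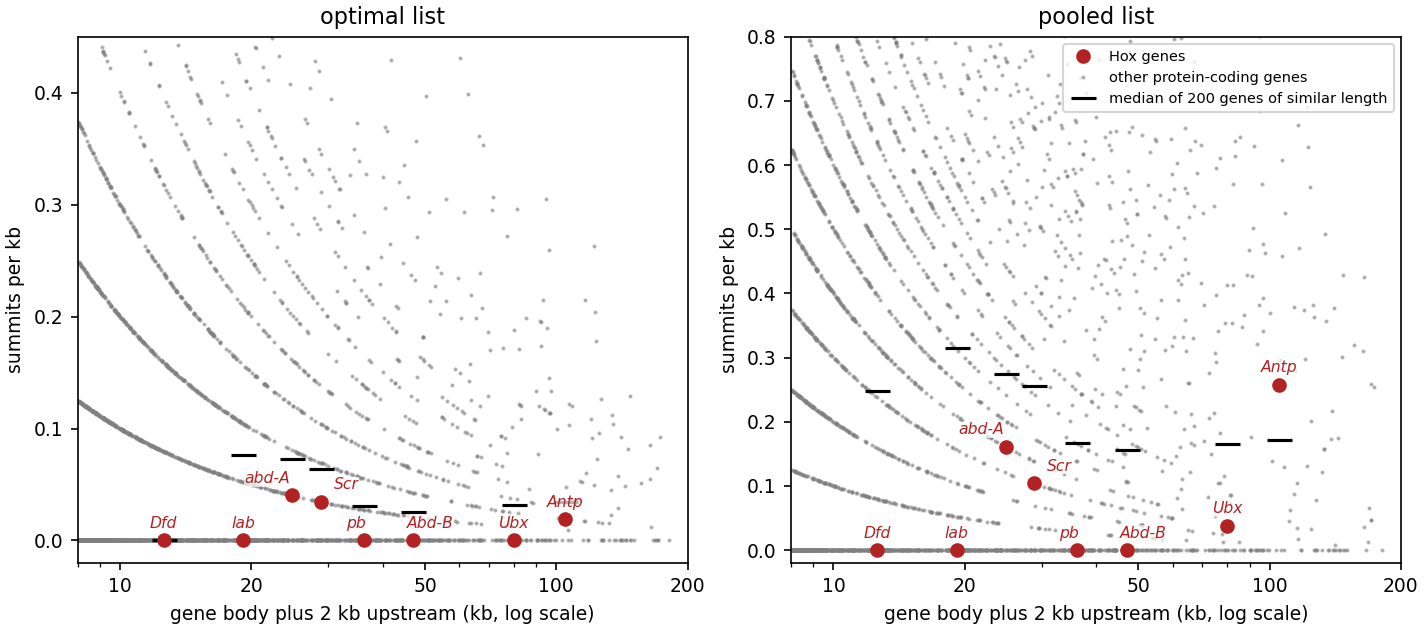
Peak summits per kb against region length (kb, log scale) for the Hox genes (red) and the other protein-coding genes (grey), in the optimal list (left) and the pooled list (right), with bars at the median of the 200 genes of similar length; genes beyond the axis limits are not drawn. In the pooled list Antp, at 0.257 per kb, is the single Hox gene above its bar, and in the optimal list no Hox gene is above it.

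Of the head genes, lab (FBgn0002522, 3R 6661427–6678590, minus strand), which acts in the embryonic head and in the midgut, held 0 summits in the optimal, pooled and replicate lists. Of the 200 genes of similar length, 55 also held 0 pooled summits, and the median was 6. The genes nearest to lab in length were opa, with 0 optimal and 0 pooled summits, and CG43333, with 2 and 7. The optimal summit nearest to the lab gene, at 3R 6658033 with rank 1427, lay 3394 bp beyond its 3′ end and 151 bp from a start of the neighbouring gene twr.

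No summit of any list lay in pb (FBgn0051481, 3R 6707800–6742063, minus strand), which specifies adult mouthparts. Of the genes of its length, 68 of 200 held 0 pooled summits and the median was 6; its nearest in length, KrT95D and zormin, held 10 and 1 optimal summits. The whole of pb lay in a stretch of 61.28 kb without a pooled summit. That stretch ended at 3R 6763048, a summit of rank 2196 near a start of Amalgam (Ama), which encodes a secreted immunoglobulin-domain protein.

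Dfd (FBgn0000439, 3R 6791836–6802428, plus strand), the gene of the mandibular and maxillary segments, was likewise without a summit. It is the shortest member, and 72 of 200 genes of its length held 0 pooled summits, against a median of 3. The genes nearest in length, sra and Obp73a, held 0 optimal summits each, and 6 and 0 pooled ones. Dfd lay in a gap of 49.287 kb between pooled summits, whose far side was the strongest peak of the complex, 10.106 kb from the Dfd gene.

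Scr (FBgn0003339, 3R 6823120–6849981, minus strand) specifies the labial segment and the anterior thorax, where male sex combs form. Its optimal peak, 3R 6832522–6832870 with its summit at 6832678, lay in an intron, 685 bp from the start of the noncoding gene lncRNA:CR45901 and 15827 bp from the nearest Scr start. It had a signal of 548 and rank 5431, so that 40.3% of optimal peaks were weaker. Its rank was 4905, 6495 and 5861 in the lists of replicates 1, 2 and 3, and its signal there was 177, 151 and 233. The site was therefore among the 9095 strongest in all 3 replicates, at the most 47 bp from the pooled summit. A further pair of pooled summits, at 6832884 (rank 21838) and 6833900 (rank 22992), lay 479 and 271 bp from starts of the same noncoding gene. Scr held 3, 2 and 1 summits in replicates 1, 2 and 3, a mean of 2 ± 1 (SD, n = 3). Its 3 pooled summits, 0.104 per kb, compare with a median of 7 over 200 genes of similar length, 76 of which had a lower density. Its nearest in length, ChAT and Pif1A, held 0 and 3 optimal summits.

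Antp (FBgn0260642, 3R 6896253–6999228, minus strand), which specifies the thorax and promotes leg over antenna identity, held 27 of the 37 pooled Hox summits. It held 24, 23 and 32 summits in replicates 1, 2 and 3, a mean of 26.3 ± 4.93 (SD, n = 3), so every replicate had more summits in Antp than in the other Hox genes together. Antp is also the longest member, with a region of 104.976 kb. Its pooled density, 0.257 per kb, was above that of 111 of 200 genes of similar length, whose median was 0.172, while its optimal density was above that of 84 of 200. Antp held 27 pooled and 2 optimal summits, against 31 and 5 in RhoGEF64C and 30 and 1 in Cph, the genes nearest in length. Some pooled Antp summits lay in overlapping peak intervals, such as those at 6912894 and 6913119. The 27 are therefore not a count of separate sites.

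Both optimal summits of Antp lay in an intron, 3′ of all of its annotated starts, and also within CG46458, an overlapping protein-coding gene whose span holds 23 of the 27 pooled summits. The peak at 3R 6923242–6923473, with its summit at 6923326, lay 9514 bp from the nearest Antp start and had a signal of 468 and rank 6641. Its rank was 8816, 6603 and 6272 in replicates 1, 2 and 3, with signals of 110, 149 and 221. The neighbouring peak at 6922493–6922752, with its summit at 6922595, lay 10245 bp from that start and had a signal of 450 and rank 6967. Its rank was 6370, 9399 and 7072 in replicates 1, 2 and 3, so it fell outside the 9095 strongest in replicate 2 alone. Both sites were present in every replicate list and were weaker than most optimal peaks, of which 27.0% and 23.4% had a lower signal.

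Summits of Antp were spread unevenly between its starts. Antp has annotated starts at 3R 6999228, 6958370 and 6932840, used by 5, 1 and 6 transcripts. The 40.858 kb from the outermost to the middle start held 4 pooled summits, or 0.0979 per kb. The 25.53 kb from the middle to the innermost start held 11, or 0.431 per kb, and the 36.587 kb from there to the 3′ end held 12, or 0.328 per kb. The stretch below the outermost start was the sparsest in every replicate, with 3, 3 and 7 summits in replicates 1, 2 and 3. The segment between the middle and innermost starts held 10, 8 and 11, and the 3′ segment held 11, 12 and 13. The innermost start had the single pooled promoter summit of the gene, at 6932757, 83 bp away with rank 20352. Within 100 bp it was matched in replicate 3 only, at rank 17698. Replicate 2 had summits at the same start just past that limit, 109 and 148 bp from the pooled summit, at ranks 25308 and 28703, and replicate 1 had none within 500 bp of the start. The strongest summit outside the optimal list, at 6914529, had rank 10402 and lay in the 3′ segment; it ranked 11690, 12006 and 9985 in replicates 1, 2 and 3. Of the 25 weaker Antp summits, 12 (48%) were matched in 3 replicate lists, 6 (24%) in 2 and 7 (28%) in 1. Over all pooled summits outside the optimal list the shares were 42.8%, 36.0% and 18.8%.

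Ubx (FBgn0003944, 3R 16656623–16734426, minus strand), which makes halteres rather than wings on the posterior thorax, held 0 optimal summits and 3 pooled ones. The replicate lists held 4, 3 and 2 summits in replicates 1, 2 and 3, a mean of 3 ± 1 (SD, n = 3). All 3 pooled summits were intronic and weak, at 16718323 (rank 21176), 16678030 (rank 22058) and 16678252 (rank 23892), and each was matched in 2 of the 3 replicate lists. The first of them ranked 9361 in replicate 1 and 29251 in replicate 3 and was unmatched in replicate 2. The peak intervals of the other pair overlapped. The pooled density of 0.0376 per kb was the lowest of the 4 Hox genes that held a summit, against a median of 0.165 over 200 genes of similar length, 70 of which had a lower density. The genes nearest in length, side-VI and shot, held 0 and 15 optimal summits. An optimal summit at 16655517 (rank 3108) lay 1106 bp beyond the 3′ end of Ubx, 145 bp from a start of modSP, a serine protease gene of innate immunity.

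abd-A (FBgn0000014, 3R 16807214–16830049, minus strand), which specifies the middle abdomen, held 1 optimal and 4 pooled summits. The optimal peak, 3R 16819639–16819875 with its summit at 16819774, lay in an intron 8331 bp from the nearest abd-A start, with a signal of 430 and rank 7354. It was present in replicate 3 at rank 4439, with a signal of 286, and had no summit within 100 bp in replicates 1 and 2. Of the 4 optimal Hox summits 3 were matched in all 3 replicate lists, abd-A being the exception, against 91.1% of all 9095 optimal peaks. The replicate lists held 3, 1 and 7 abd-A summits in replicates 1, 2 and 3, a mean of 3.67 ± 3.06 (SD, n = 3), the widest relative spread among the members. Replicate 3 alone placed summits of abd-A among its 9095 strongest, that peak and one at 16811985 with rank 6256. The summit seen in all 3 lists, at 16813235, was weak, with pooled rank 18775 and ranks of 18402, 21495 and 21390 in replicates 1, 2 and 3. The pooled density was 0.161 per kb, against a median of 0.274 over genes of similar length, and the genes nearest in length, OtopLa and CG43078, held 1 and 0 optimal summits.

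No summit of any list lay in Abd-B (FBgn0000015, 3R 16927212–16972236, minus strand), which specifies the posterior abdomen and genitalia and has the most annotated start sites of the members, 6. Of 200 genes of similar length, 61 held 0 pooled summits, and the median was 7.5. Its nearest in length, Sarm and Octbeta2R, held 5 and 0 optimal summits. The gene lay in a stretch of 66.88 kb without a pooled summit, the 67th longest of 6980 such gaps on 3R. With the summits of all 5 lists together the stretch was 66.854 kb, so the replicate lists added no summit to it beyond its edges. Longer gaps between pooled summits lay at members that do hold summits. A gap of 96.257 kb began within Antp and took in its outermost start. Another, of 78.994 kb, ran from a summit in Scr to one in Antp.

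Few summits lay at the members' promoters. The 8 genes have 19 annotated start sites, and 1 of them, the innermost of Antp, had a pooled summit within 500 bp; 0 had an optimal one. In the lists of replicates 1, 2 and 3, 0, 1 and 3 of the start sites had a summit that close. Those of replicate 3 were the innermost start of Antp and starts of abd-A, where a summit at 16830182 with rank 9357 lay 133 bp from the outermost start and had no pooled counterpart. The nearest optimal summit to a start of each gene lay 5421 bp away for lab, 20985 bp for pb, 20698 bp for Dfd, 15827 bp for Scr, 9514 bp for Antp, 29728 bp for Ubx, 8331 bp for abd-A and 10151 bp for Abd-B. Of the 37 pooled Hox summits 34 were intronic and 3 lay at promoters, of which 2 were those of lncRNA:CR45901 inside Scr. The matching shares over all summits and all annotated start sites were not computed, so these counts are not shown to be particular to the Hox genes. Of the 33 Hox summits outside the optimal list 13 (39.4%) were matched in all 3 replicate lists, against 42.8% of all 20905 such pooled summits.

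The complexes hold other genes between the Hox genes, and in the Antennapedia complex the strongest binding lay there. From the 3′ end of lab to the upstream edge of Antp, 339.802 kb, the Antennapedia complex held 10 optimal summits, 3 in Hox gene regions and 7 outside them. The bithorax complex, 317.614 kb from the 3′ end of Ubx to the upstream edge of Abd-B, held 2 optimal summits, 1 in abd-A and 1 outside the Hox gene regions. This came to 0.0294 and 0.00630 optimal summits per kb in the Antennapedia and bithorax complexes, against 0.0798 along 3R. For pooled summits it was 0.124 and 0.0976 per kb, against 0.250 along 3R.

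**Figure D3:**
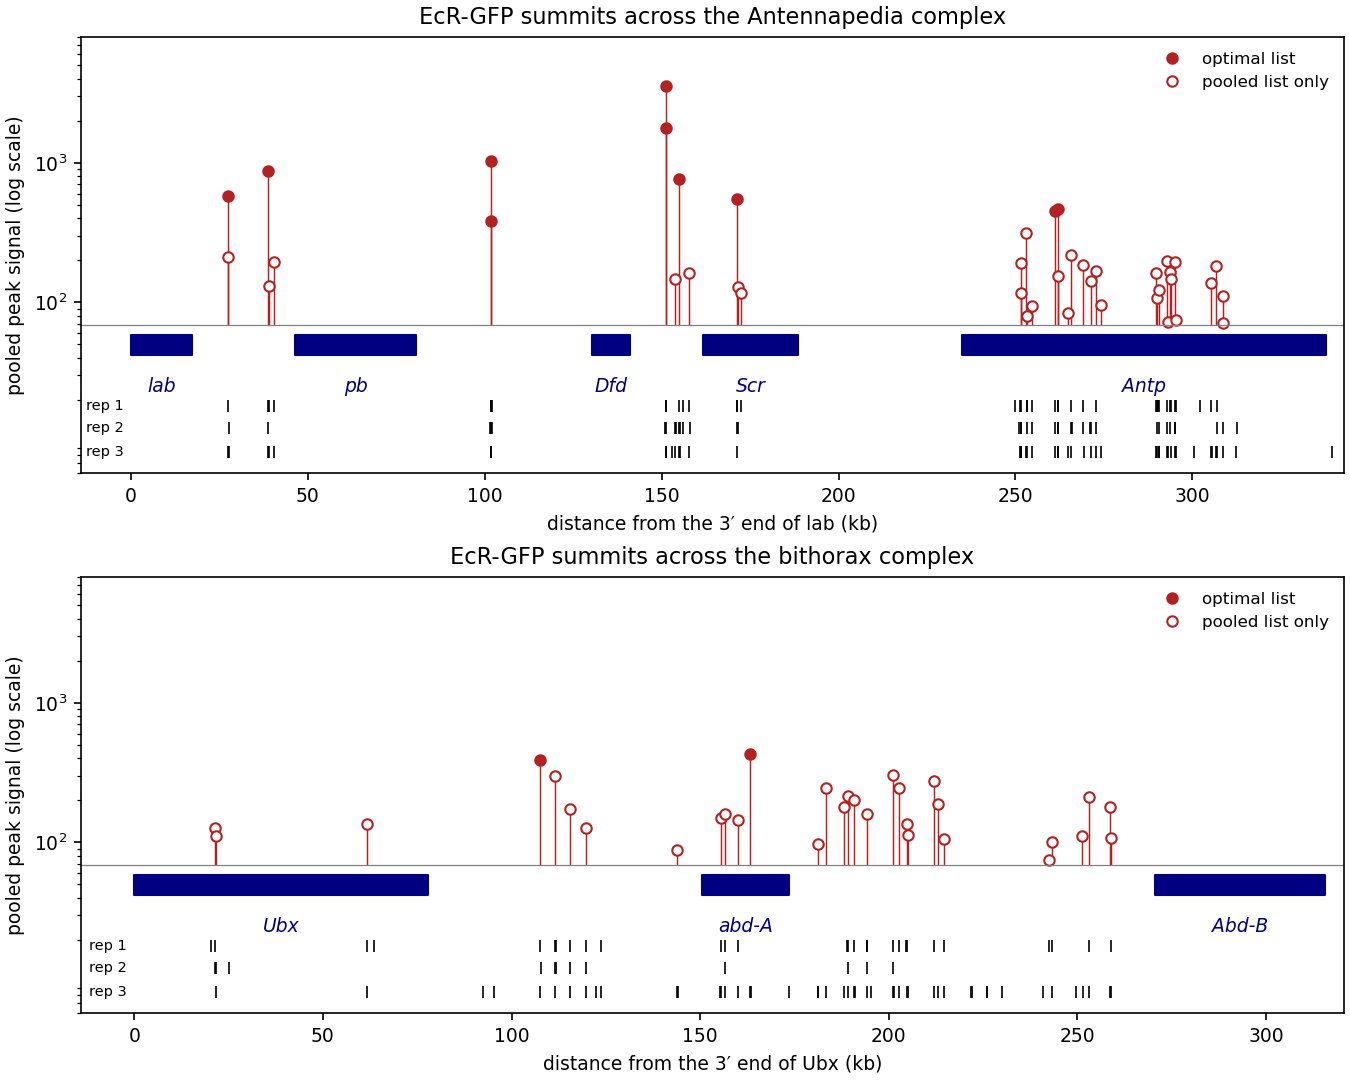
Pooled peak signal (log scale) of each summit along the Antennapedia and bithorax complexes, by distance from the 3′ end of lab or Ubx (kb), with filled symbols for summits of the optimal list, open symbols for those of the pooled list only, bars for the Hox gene bodies, and ticks for the summits of replicates 1, 2 and 3. The highest signal, 3562, lies between Dfd and Scr, open symbols are most numerous in the body of Antp and between abd-A and Abd-B, and pb, Dfd and Abd-B lie in empty stretches.

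The strongest peak of either complex, 3R 6812053–6813184, was 1132 bp wide with a signal of 3562 and rank 252, so that 97.2% of optimal peaks were weaker. Its summit at 6812534 lay in an intron of the noncoding gene lncRNA:CR42651, 2952 bp from mir-10, a microRNA gene of the complex, 10.106 kb from the Dfd gene and 10.586 kb from the Scr gene. It ranked 260, 327 and 233 in replicates 1, 2 and 3, well above any summit inside a Hox gene in the same lists. Another summit of the same peak interval, at 6812733, had rank 909. A summit of a separate peak, at 6816426 and 47 bp from a start of lncRNA:CR42651, had rank 3415. Both were matched in all 3 replicates. Peak positions alone do not link this site to either neighbouring Hox gene.

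Of the other optimal summits in the Antennapedia complex, 2 lay at Ama, at ranks 2196 and 8507 and within the same peak interval. A summit of rank 2848 lay at the promoter of lncRNA:CR33938, and an intergenic one of rank 5042 near Ccp84Af was unmatched in replicate 2. The homeobox genes of the complex without a homeotic role, the pair-rule gene ftz, the dorsoventral gene zen, its copy zen2, and bcd, the anterior morphogen gene, held 0 optimal and 0 pooled summits. Genes of similar length were bound in 24.5% of cases on average, and these 4 genes are short. Of 15 protein-coding genes of the complex other than the Hox genes, 2 held an optimal summit: Ama, and CG46458 through the summits it shares with Antp. The share over all protein-coding genes was 30.7%, and the share over genes of similar length was not computed for these 15.

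**Figure D4:**
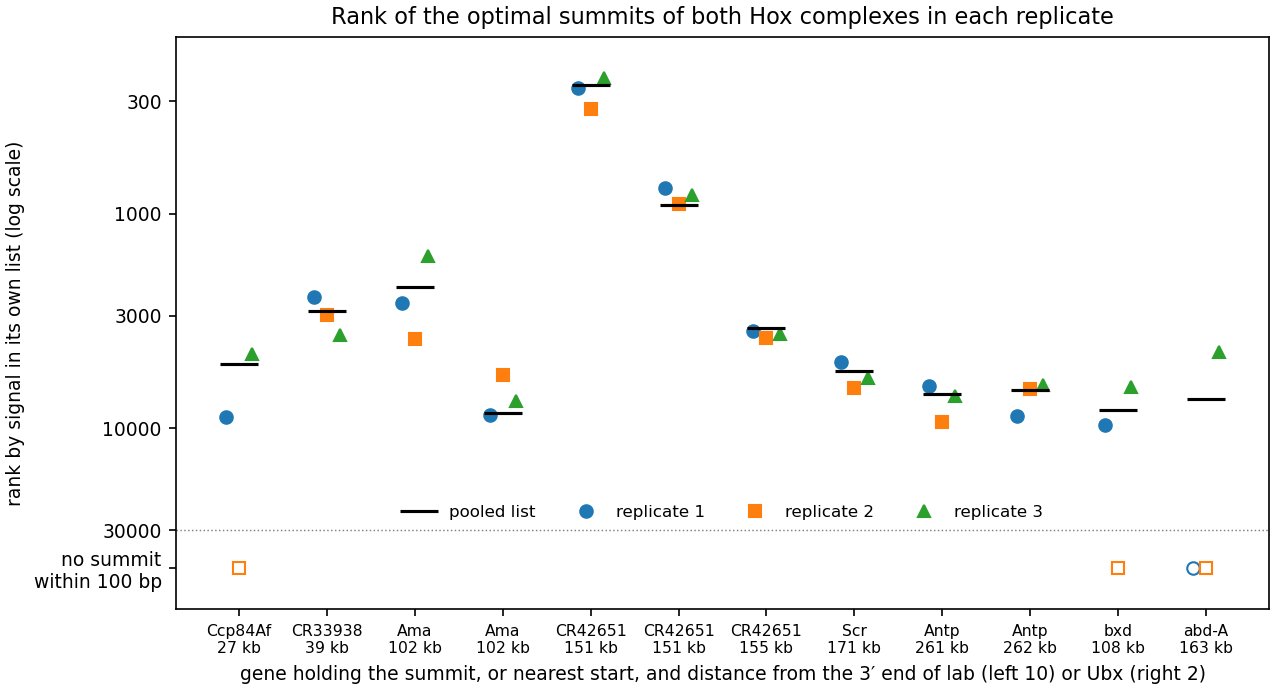
Rank by signal (log scale, strongest at the top) of each optimal summit of both Hox complexes in the lists of replicates 1, 2 and 3, with the pooled rank as a bar and hollow symbols where a replicate has no summit within 100 bp. The summits in Scr and Antp have closed symbols in all 3 replicates, that in abd-A in replicate 3 only, and the pair in the intron of lncRNA:CR42651 is the highest in each replicate.

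In the bithorax complex the optimal summit outside the Hox gene regions lay in an intron of lncRNA:bxd, a noncoding gene upstream of Ubx whose surroundings hold Ubx control elements, at 3R 16764154 with rank 8220. It was unmatched in replicate 2. Between abd-A and Abd-B, lncRNA:iab8, the noncoding host of mir-iab-8, held 19 pooled summits and 0 optimal ones, the strongest at rank 10862. The replicates differed there, with 15, 3 and 29 summits in replicates 1, 2 and 3.

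Over the whole bithorax complex replicate 2 was lowest and replicate 3 highest, with 28, 12 and 48 summits in replicates 1, 2 and 3, against 7107, 6984 and 6981 along 3R. Replicate 2 held 9 of the 31 pooled summits of the complex (29.0%), against 78.9% of those along 3R. Replicates 1 and 3 held 20 (64.5%) and 29 (93.5%) of the 31, against 79.8% and 82.7% along 3R. In the Antennapedia complex the numbers were closer, 39, 38 and 47 summits in replicates 1, 2 and 3. The Ubx and abd-A values rest on these lists, and the part of replicate differences in them was not tested. With only summits matched in both other replicates counted, an alternative added after the values were known, the number of pooled Hox summits was 19 without replicate 1, 23 without replicate 2 and 18 without replicate 3, against 37, and the same number of Hox genes, 4, held one.

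Genes that act with the Hox proteins were counted in the same way. Of 6 cofactors and partners 3 held an optimal summit (50%), against 51.3% of genes of similar length on average. Homothorax (hth), whose product brings the Hox cofactor Extradenticle into the nucleus, held 15 optimal and 66 pooled summits, the strongest an intronic one of rank 1469. The zinc-finger genes disco-r and disco, which act with Dfd and Scr in the head, held 2 and 1 optimal summits, the strongest at their own promoters with ranks 3619 and 4398. Extradenticle (exd) and teashirt (tsh), a trunk gene, held 0 optimal and 3 pooled summits each, and tio held 0 of both.

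The regulators that keep Hox genes on or off came next. Of 21 Polycomb group genes 9 held an optimal summit (42.9%), against 45.2% of genes of similar length. In E(z), Caf1-55, phol, calypso and Pcl the strongest summit lay nearest a start of another gene. In ph-p, ph-d, Psc and Su(z)2 it lay nearest a start of their own. The comparison genes were counted by the same rule. The strongest summits of the group were in ph-p (rank 2949), Su(z)2 (rank 3528) and Psc (rank 4009), which encode subunits of a Polycomb repressive complex or a relative of one. Of 14 trithorax group genes 8 did (57.1%), against 52.5%. The Mediator subunit gene skd (rank 186, 12 optimal summits), the chromatin remodeller subunit gene osa (rank 279, 16 summits) and the remodeller gene kis (rank 429, 8 summits) led them.

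Of 10 genes known as targets of Hox proteins 6 held an optimal summit (60%), against 50.7% of genes of similar length. The death activator reaper (rpr), a target of Dfd, had a summit of rank 584, 5 bp from its start. Decapentaplegic (dpp), a secreted signal and a midgut target of Ubx, had one of rank 1823 at its promoter. CrebA, a regulator of secretory genes downstream of Scr in the embryonic salivary gland, had one of rank 2535 in an intron. All 3 summits were matched in all 3 replicate lists.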

How the data were processed

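ChIP-seq against GFP was carried out on 3 replicates of 1 line. Peaks are in dm6, release 6 of the genome, per the labels. Per the deposited notes, 1 replicate and a control alignment went into each replicate list, all 3 replicates went into the pooled list, and the optimal list was thresholded on the irreproducible discovery rate. The caller, its settings and the aligner were not given in the sources used here. No counting interval is therefore given. Peaks were ranked within each list by the deposited signal value, whose scale is not stated. The deposited −log10 q-value was not used. The optimal list equals the 9095 strongest pooled peaks. A fixed list of 30000 takes in weaker peaks, so a site absent from it may still be bound.

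Summits were computed as peak start plus offset and given 1-based. Genes came from the Ensembl 115 annotation on chromosomes 2L, 2R, 3L, 3R, 4 and X. Regions were gene bodies plus 2 kb upstream, and a summit in overlapping genes counted for each. Replicate summits within 100 bp counted as matched. Promoters reach 500 bp either side of any start. Each Hox gene was set beside the 200 protein-coding genes of closest region length. Motifs were searched within 100 bp of summits in the RefSeq release 6 sequence. Scripts used Python 3.11.15, numpy 2.4.6 and pandas 2.3.3 and were tested on simulated data. Alternatives changed the list, gene region, comparison genes, matching distance, motif setting and replicates used. The Hox members and all gene lists were chosen with earlier results of these data known. All Hox genes are named with their optimal summits, strongest pooled summit and the 2 genes nearest in length, and up to 3 members of each other list by strongest optimal peak. Other genes were named after their values were seen.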

Additional observations from a re-analysis of the deposited data

How the results depend on the processing

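Of 66 recomputed values 47 were counted as close to the value reported and 19 as moved. The 47 include changes from 3 genes to 2 and from 4 summits to 6. They also include the median shares that stayed at 0%, so the tally does not measure stability. With the pooled list the Hox regions held 37 summits, 0.105 per kb, and the median Hox gene was denser than 17.5% of genes of similar length, against 0% in the optimal list. The 0% was fixed by the members without an optimal summit, since no gene can have a density below 0. No member lay near 17.5%: Ubx, abd-A, Scr and Antp were denser than 35%, 37.5%, 38% and 55.5% in the pooled list, and the others than 0%. Above the median signal of the optimal list there were 0 Hox genes with a summit, 0 summits and 0 per kb. The strongest peaks of replicate 2 gave 2 summits, 0.00566 per kb. With 5 kb on both sides of the gene body 5 genes held a summit, and the median share of genes with a lower density was 32.5%. The added genes were lab and Ubx, through the summits near starts of their neighbours twr and modSP. When 1 replicate was left out and an optimal summit had to be matched among the 9095 strongest peaks of both others, there were 2 genes each time, 2 to 3 summits and 0.00566 to 0.00849 per kb. Leaving out replicate 1 or replicate 3 then gave 2 summits, against 4, since neither the Antp summit at rank 9399 in replicate 2 nor the abd-A summit was counted. With a match anywhere in both other replicate lists, an alternative added after the values were known, the optimal list gave 2 genes and 3 summits each time. On the same full lists the pooled list gave 4 genes each time and 18 to 23 summits. The inverted repeat was found at 4 pooled Hox summits with at most 2 mismatches and at 1 within 200 bp, against 0. The abd-A peak was lost whenever summits of 2 replicates were required. No paired analysis was possible because the replicates form a single group. Depth is unknown, so a gene without a summit is not shown to be unbound, and the cause of the moves was not tested beyond the fewer or more peaks that each setting counts.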
